A study of Mus musculus with 8 samples.

Results

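The 10 genes described here are mouse genes of the contractile apparatus of smooth muscle that are known targets of serum response factor (SRF), together with the gene of SRF itself: Acta2, Actg2, Tagln, Cnn1, Cnn2, Tpm1, Tpm2, Myl9, Vcl and Srf. They were taken by symbol from the 31053 genes of the count matrices. The set was chosen by how these genes behaved between the growth temperatures in earlier results of the same data, so their values by temperature are a description: counts of members past a threshold in that contrast are printed beside the share of all genes, with no p for a member, and nothing is read from them. The members were tested on the phase of the cell cycle within libraries, a comparison that the choice had not used. All 10 genes had at least 1 count per library on average over all cells and entered the fit of 15810 genes, Cnn1 only through its 19 UMIs at 37 °C, since it had 3 at 39 °C.

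SN4741 is a mouse neural precursor line, reported to be 1 clone from embryonic substantia nigra, that carries a heat-sensitive viral T antigen driven by the tyrosine hydroxylase promoter. Droplet-based 3′ single-cell RNA-seq was made from 8 libraries labelled wild type, 4 grown at 37 °C in 10% serum (the permissive temperature) and 4 moved 24 hours after passage to 39 °C in 0.5% serum for 48 hours (the non-permissive temperature, meant to start differentiation). Temperature and serum changed together, and cannot be told apart. The labels do not say that the libraries of 1 temperature came from separate cultures. Each p-value by temperature therefore measures only the spread between these libraries, which may be technical. Each p-value by phase comes from 1 fit of all 8 libraries, in which both temperatures share 1 estimate of the spread. It measures only how far the differences between phases varied from library to library over both temperatures, which may be technical too.

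SRF is a transcription factor that binds a short DNA element, the CArG box, as a dimer. Its output is divided between 2 families of cofactors. The myocardin-related factors (MRTF-A, MRTF-B and myocardin) are held back by unpolymerized actin and, when actin polymerizes, enter the nucleus and drive genes of the actin cytoskeleton and of muscle contraction. The ternary complex factors (Elk1, Elk3 and Elk4) are activated by growth factor signalling through the MAP kinase pathway and drive immediate-early genes such as Fos and Egr1. Serum is the classical stimulus of both. Acta2, Tagln and Myl9 are high in vascular smooth muscle and in myofibroblasts, while Tpm1, Vcl and Cnn2 are also used by many other adherent cells.

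The promoters show where SRF could be recruited. Promoter sequence was found in RefSeq (GRCm38.p6) for 8 of the 10 genes. The windows of 300 bases run from 250 before to 50 after the RefSeq start. Tagln and Actg2 had no entry. A CArG box (CC, then 6 bases that are A or T, then GG, a pattern that reads as the same kind of site on either strand) was present in the windows of Srf, Myl9, Cnn2 and Vcl, 4 of 8 genes, against 1.81% of 27025 genes with a promoter in the table. With 1 base allowed to differ, Acta2 and Tpm1 had matches as well, making 6 of 8 genes against 23.8% of all genes. The members were listed as known targets of SRF, so these shares are not independent of the choice and nothing is read from them. Such windows also held GGAATG, the core bound by TEAD factors, on 1 of the strands in Acta2, Tpm1 and Vcl, against 14.7% of all 32851 windows; no GGAATG overlapped a CArG match. The 250 bases before the start are printed for the 4 genes with a box, which include the gene of SRF itself, and for Acta2, the gene most tied to smooth muscle. Capitals mark CArG boxes, and in Acta2 the matches with 1 base off.

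Srf, chr17:46556163-46556412, minus strand: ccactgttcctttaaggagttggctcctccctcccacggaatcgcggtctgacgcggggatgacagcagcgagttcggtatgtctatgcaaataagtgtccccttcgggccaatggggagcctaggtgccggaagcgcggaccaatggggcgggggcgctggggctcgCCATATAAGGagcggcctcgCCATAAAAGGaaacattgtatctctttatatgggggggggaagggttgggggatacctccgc
Myl9, chr2:156775214-156775463, plus strand: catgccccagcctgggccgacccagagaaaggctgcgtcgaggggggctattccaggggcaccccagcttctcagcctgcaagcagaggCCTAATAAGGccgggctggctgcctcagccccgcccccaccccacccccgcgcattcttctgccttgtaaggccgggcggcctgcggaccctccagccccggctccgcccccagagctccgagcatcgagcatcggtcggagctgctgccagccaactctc
Cnn2, chr10:79988350-79988599, plus strand: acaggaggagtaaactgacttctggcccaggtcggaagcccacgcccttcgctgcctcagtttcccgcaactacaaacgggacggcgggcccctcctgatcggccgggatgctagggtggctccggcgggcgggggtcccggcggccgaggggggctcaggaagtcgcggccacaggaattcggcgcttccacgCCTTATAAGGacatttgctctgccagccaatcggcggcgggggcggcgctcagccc
Vcl, chr14:20929148-20929397, plus strand: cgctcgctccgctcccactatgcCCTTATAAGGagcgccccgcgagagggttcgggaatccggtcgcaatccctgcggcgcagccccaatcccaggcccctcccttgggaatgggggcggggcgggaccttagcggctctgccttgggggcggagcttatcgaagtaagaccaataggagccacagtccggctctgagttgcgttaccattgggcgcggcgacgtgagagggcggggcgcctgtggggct
Acta2, chr19:34255374-34255623, minus strand: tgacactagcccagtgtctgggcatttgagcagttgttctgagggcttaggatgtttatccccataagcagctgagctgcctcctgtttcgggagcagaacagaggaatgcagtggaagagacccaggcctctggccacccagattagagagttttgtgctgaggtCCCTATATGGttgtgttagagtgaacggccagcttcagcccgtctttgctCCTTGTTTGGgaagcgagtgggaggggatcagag

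Srf had 2 boxes, CCATATAAGG beginning 82 bases and CCATAAAAGG beginning 62 bases before the start. Myl9 had CCTAATAAGG beginning 161 bases before the start. Cnn2 and Vcl had the same letters, CCTTATAAGG, beginning 56 and 227 bases before their starts. In Acta2 the near matches CCCTATATGG and CCTTGTTTGG began 84 and 34 bases before the start. In Tpm1 the near matches CCATATATAG and CCAAAAAAGT began 221 and 80 bases before it. All distances are from the RefSeq start, which can differ from the gene positions given below, from GENCODE. For Acta2 most of the printed stretch, 34255374 to 34255623, lies inside the GENCODE gene, which begins at 34255590 on the minus strand. The Tpm1 gene likewise begins at 67049406, within its window of 67049164 to 67049463. Distances from the GENCODE ends would differ, and which start these cells use was not tested. Tpm2 and Cnn1 had no match in their windows, which says only that these letters are not there. A match of letters is not evidence of binding.

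Across the libraries 18351 of 19125 cells passed the study's limits, 8550 at 37 °C and 9801 at 39 °C. A library held 985 to 3494 kept cells and 17166686 to 29633818 unique molecular identifiers (UMIs, which count captured transcript molecules), and at most 5 cell barcodes were shared by any pair of libraries. No doublet caller was run, and the upper limit of 6000 genes per cell is the only guard against doublets. Nes and Vim, with a further 4 neural precursor markers, summed to 5638 to 6013 CPM (UMIs per 1000000 UMIs) at 37 °C and 5191 to 5803 at 39 °C. Sox1, Pax6 and Msi1 were under 1 CPM in every library. Nes was a small part of the sum and did not follow it, with means of 467 CPM at 37 °C and 108 CPM at 39 °C. Nearly all the rest came from Vim and Sox2 together, so the sum is not read as a sign of neural identity. Of the 4 markers tested, 1 was lower at 39 °C and 2 were higher (edgeR, adjusted p under 0.05), where 30.5% and 31.5% of all genes were. Of 7 smooth muscle markers, Myh11, Myocd and Cnn1 were under 1 CPM in every library, and the list summed to 22.3 to 26.2 CPM at 37 °C and 15.4 to 16.3 at 39 °C. The defining smooth muscle myosin and the muscle cofactor of SRF were close to absent. Acta2 and Tagln of the same programme averaged 225 and 95.6 CPM at 37 °C, and were detected in a minority of cells. The sum of 6 fibroblast markers was lower at 39 °C, as the members were, at 1668 to 1745 CPM at 37 °C and 751 to 784 at 39 °C. Col1a1 alone averaged 1027 and 575 CPM. Of the 5 markers tested, 3 were lower by the same rule, where 30.5% of all genes were, and 2 did not pass. Dcn and Lum were under 1 CPM in every library. The part of these markers in the results was not tested. The sum of 6 pericyte markers went the other way (142 to 155 CPM against 193 to 205), with Rgs5, Kcnj8 and Abcc9 under 1 CPM throughout. Of the 4 tested, 1 was lower and 2 were higher by the same rule, where 30.5% and 31.5% of all genes were. All 5 endothelial markers were under 1 CPM in every library (sums 0.574 to 1.02 and 0.834 to 1.17), as were Ptprc, Aif1 and Cd3e of the 4 immune markers, whose sum (15.2 to 18.2 and 26.6 to 34.7) came almost wholly from Cd68. Of 8 markers of skeletal and cardiac muscle, Myod1 was not detected and Myog, Ttn, Actc1 and Myh6 were under 1 CPM in every library (sums 13.03 to 14.5 and 8.60 to 9.73).

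All 10 genes were lower at 39 °C than at 37 °C, and in 9 of them no 39 °C library reached the lowest 37 °C library. The genes fell into tiers: Acta2, Tagln, Myl9 and Actg2 differed by about 9-fold to 10-fold, Vcl, Tpm2, Cnn2, Tpm1 and Srf by about 1.5-fold to 2.3-fold, and Cnn1 was too scarce to place. All 10 were past an adjusted p under 0.05 in the fit over all genes, where 30.5% of the genes tested were lower by that rule and 31.5% were higher. At stricter limits (adjusted p below 0.01, log2 fold change below -1.5), 4 of the 10 were called against 3.62% of all genes. Libraries without overlap in this direction were found for 28.0% of all genes. This contrast chose the genes, so these counts were fixed by the choice and support nothing. The CPM below are scaled by normalization factors. Each UMI counts 1 captured molecule, read at its 3′ end, so CPM is not divided by transcript length. In these sums fewer expressing cells and less RNA per cell cannot be told apart.

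**Figure D1:**
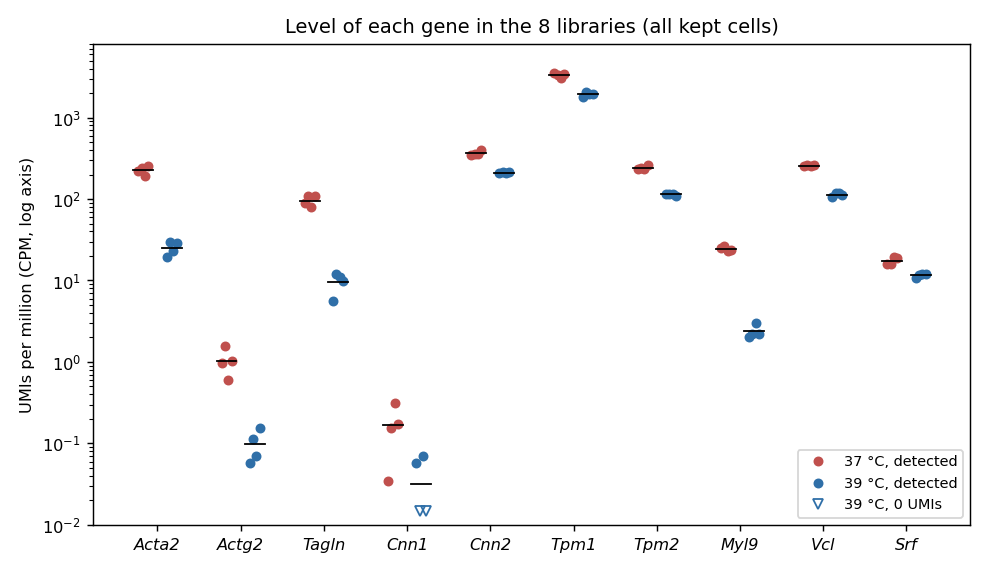
Level of each of the 10 genes in the 8 libraries, as CPM on a log axis, with red points for 37 °C, blue points for 39 °C and black bars for the mean of 4 libraries. Open triangles at the foot mark libraries with 0 UMIs of Cnn1, and for Acta2 the 37 °C libraries sit at 190 to 254 and the 39 °C libraries at 19.6 to 29.5.

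The smooth muscle actins came first. Acta2, α smooth muscle actin (chr19:34241090-34255590, minus strand), was at 220, 237, 190 and 254 CPM in replicates 1 to 4 at 37 °C and at 19.6, 29.5, 22.9 and 29.2 CPM at 39 °C. Every library at 39 °C lay well under the lowest at 37 °C, and the group means of 225 ± 27.6 and 25.3 ± 4.90 CPM (each SD over 4 libraries) gave a log2 fold change of -3.14 ± 0.11 (SE). Actg2, γ smooth muscle actin of gut and bladder (chr6:83512905-83536265, minus strand), was rare. Its UMIs were 28, 40, 17 and 29 in replicates 1 to 4 at 37 °C and 1, 3, 2 and 4 at 39 °C. Pooled over a temperature, 114 UMIs of 113220605 against 10 of 97313978 gave 1.01 CPM (95% exact Poisson interval 0.831 to 1.21) and 0.103 CPM (0.0493 to 0.189), a ratio of 9.80 (5.14 to 21.0, counting error only). The actins have near-identical coding sequence, but no run of 50 bases in the last 500 bases of any of the 10 genes' transcripts was shared with a transcript of another gene.

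The actin-binding proteins of the thin filament gave both tiers. Tagln, transgelin or SM22α (chr9:45929619-45936058, minus strand), was at 88.2, 107, 79.1 and 108 CPM at 37 °C and 5.62, 12.1, 11.1 and 9.98 CPM at 39 °C. The lowest 39 °C value was that of replicate 1, and the groups did not overlap; the log2 fold change was -3.26 ± 0.13 (SE). Cnn2, the widely expressed calponin (chr10:79988584-79996062, plus strand), was at 344, 360, 360 and 396 CPM against 210, 213, 208 and 212 CPM, and the log2 fold change was -0.79 ± 0.05 (SE). The 39 °C libraries lay within 5 CPM of each other. Cnn1, the calponin of differentiated smooth muscle (chr9:22099216-22109630, plus strand), had only 1, 4, 9 and 5 UMIs at 37 °C and 1, 0, 2 and 0 UMIs at 39 °C. Its libraries overlapped, and the pooled ratio was 5.44 (1.60 to 28.7, counting error only), from 19 and 3 UMIs.

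Tropomyosins lie along the actin filament and set the access of myosin. Tpm1 (chr9:67022590-67049406, minus strand) was the most abundant member in UMIs, at 3527, 3298, 3048 and 3423 CPM at 37 °C and 1777, 2046, 1963 and 1944 CPM at 39 °C. All 4 values at 39 °C were below all at 37 °C, with a log2 fold change of -0.78 ± 0.06 (SE). The counts pool all isoforms, since the gene has 21 annotated transcripts and 3′ counts do not separate smooth muscle from non-muscle forms. Tpm2 (chr4:43514711-43523765, minus strand) was at 231, 237, 234 and 259 CPM against 116, 116, 116 and 109 CPM. Its groups were apart by more than 100 CPM, and the log2 fold change was -1.07 ± 0.05 (SE).

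Myl9, the regulatory light chain of smooth muscle myosin (chr2:156775420-156781658, plus strand), was at 25.2, 26.2, 22.7 and 23.8 CPM at 37 °C and 2.04, 2.23, 2.97 and 2.24 CPM at 39 °C. The 37 °C libraries varied by only 6.26% of their mean, and the log2 fold change of -3.34 ± 0.09 (SE) was the most negative of the 10. Vcl, vinculin, which ties actin to cell adhesions (chr14:20929398-21033676, plus strand), was at 252, 260, 254 and 261 CPM against 106, 118, 119 and 112 CPM. Its log2 fold change was -1.18 ± 0.05 (SE), with no overlap.

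Srf itself (chr17:46548329-46556175, minus strand) differed least. It was at 16.0, 15.8, 19.2 and 18.7 CPM at 37 °C and 10.6, 11.6, 11.9 and 12.2 CPM at 39 °C. The groups did not overlap, but the highest 39 °C library was within 4 CPM of the lowest at 37 °C, and the log2 fold change was -0.59 ± 0.07 (SE). Of the members, 3 overlap a gene on the other strand, and strand use in the counting is not given in the sources used here: Tagln with Pcsk7 (17.6 and 18.1 CPM at 37 and 39 °C) and Gm48529 (0.754 and 0.763 CPM), Vcl with Ap3m1 (24.3 and 21.9 CPM), and Srf with Gm26904 (1 UMI at each temperature).

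The difference by temperature was then read within 1 phase, because 39 °C libraries were mostly G1 cells. In cells assigned to G1 (397 to 709 cells per library at 37 °C and 841 to 2884 at 39 °C) 9 members had enough counts for the fit and all 9 were lower, where 22.4% of 14712 genes were. This is the contrast that chose the genes, in a subset of the same cells, and nothing is read from the count. Acta2 was at 302, 320, 251 and 314 CPM at 37 °C and 20.1, 28.9, 23.2 and 26.9 CPM at 39 °C in G1 cells, a log2 fold change of -3.57 ± 0.09 (SE) against -3.14 in all cells. Tagln was at -3.58 ± 0.14 and Myl9 at -3.57 ± 0.15 (SE). Tpm1, Cnn2, Vcl and Tpm2 in G1 cells were at -0.76, -0.81, -1.21 and -1.01, each within 0.1 of their value in all cells. Srf was at -0.49 ± 0.10 (SE), with libraries at 13.2 to 18.6 CPM and 10.3 to 12 CPM that did not overlap. Cnn1 had too few counts in G1 cells to enter the fit.

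**Figure D2:**
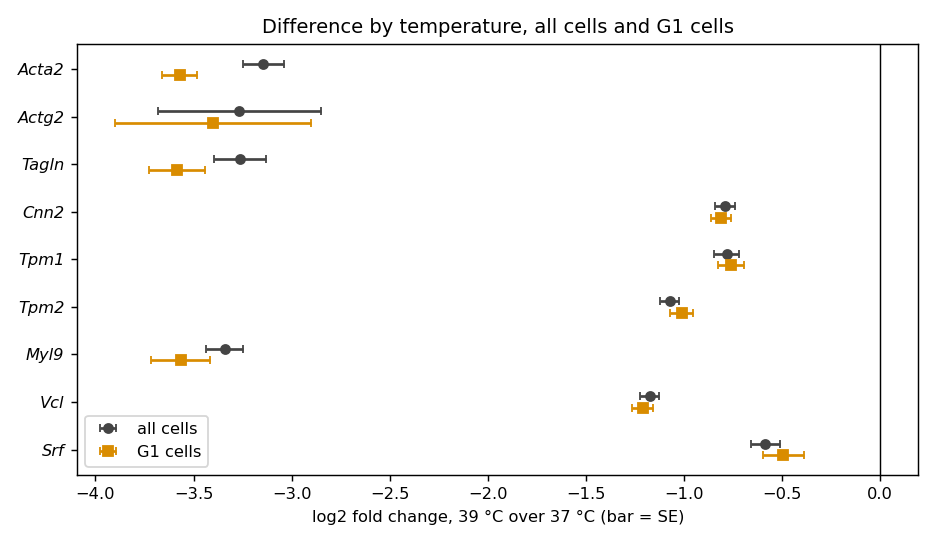
Log2 fold change, 39 °C over 37 °C, of 9 genes on the horizontal axis, with circles for all cells, squares for G1 cells and bars for the SE of the fit. Acta2, Tagln, Myl9 and Actg2 sit left of -3 in both, while Srf, Cnn2 and Tpm1 sit between -0.49 and -0.81.

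In S cells the log2 fold changes by temperature were -2.79 for Acta2, -3.89 for Tagln and -2.67 for Myl9, and in G2M cells -2.67, -3.87 and -3.04. The G2M sums at 39 °C came from 29 to 187 cells per library, and for Acta2 they were 0, 16.6, 15.2 and 84.5 CPM, so replicate 4 held most of their sum. Replicate 4 was also the highest for Tagln, with 0, 2, 8 and 23 UMIs in replicates 1 to 4, and for Myl9, with 0, 1, 0 and 11 UMIs.

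Cells were next described singly. Each cell was thinned to 5000 UMIs, which left out 47 to 290 shallower cells per library at 37 °C and 36 to 1009 at 39 °C. Acta2 was detected in 25%, 24.9%, 23.4% and 28.6% of thinned cells at 37 °C and in 3.27%, 3.73%, 3.67% and 4.23% at 39 °C (31.1% to 34.2% and 4.38% to 6.5% without thinning). In cells with at least 1 UMI of Acta2 the mean was 4.01, 4.24, 3.99 and 4.27 UMIs at 37 °C and 2.00, 3.17, 2.67 and 3.02 at 39 °C. Both measures were lower in all 4 libraries at 39 °C. A lower level also lowers the share of cells in which a gene is detected, and the median cell with Acta2 held 1 or 2 UMIs, so fewer expressing cells and less RNA per cell cannot be told apart from these values.

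Tagln followed the same pattern. It was detected in 14.2%, 13.6%, 14.6% and 17.9% of thinned cells at 37 °C and in 2.00%, 2.35%, 2.38% and 2.74% at 39 °C, with a mean of 2.29 to 3.05 UMIs in those cells at 37 °C and 1.32 to 2.09 at 39 °C. Myl9 was detected in 6.58% to 8.59% of cells against 0.734% to 0.881%. Tpm1 stood apart: it was detected in 99.6% to 99.8% of cells at 37 °C and 98% to 98.4% at 39 °C, and its mean differed, with 14.8 to 16.7 UMIs per thinned cell against 9.10 to 9.99. Cnn2, Tpm2 and Vcl lay between, detected in 71.7% to 77.1%, 61.4% to 69.1% and 63.9% to 65.3% of cells at 37 °C and in 50.2% to 53.9%, 41.2% to 42.6% and 35.7% to 40.0% at 39 °C. Srf was detected in 6.09% to 8.28% and 4.95% to 5.88%. The libraries hold a single line, with no added cell type known to lack these genes. The share that free RNA alone would give could therefore not be measured.

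**Figure D3:**
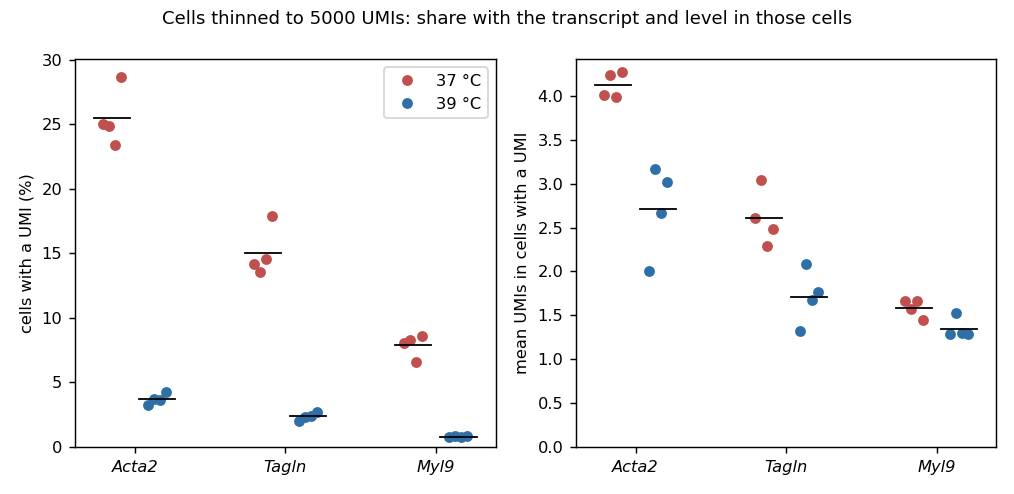
Left, share of cells thinned to 5000 UMIs that held at least 1 UMI of Acta2, Tagln or Myl9 in each library, and right, the mean number of UMIs in those cells, in red for 37 °C and blue for 39 °C with a black bar for the mean of 4 libraries. Acta2 was found in 23.4% to 28.6% of cells at 37 °C and in 3.27% to 4.23% at 39 °C.

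Acta2 and Tagln were concentrated in few cells even at 37 °C. Cells with at least 5 thinned UMIs of Acta2 were 6.60%, 7.38%, 6.17% and 8.72% of the 4 libraries, and held 65.1%, 69.7%, 63.5% and 70.1% of all Acta2 UMIs. The variance of Acta2 over cells was 8.21 to 9.16 times its mean, where the median of genes of like mean was 1.11 to 1.13 times. Tagln was at 3.66 to 5.62 times, against 1.05 to 1.07. Tpm2 (1.34 to 1.48) and Vcl (1.36 to 1.41) were much closer to genes of like mean (1.13 to 1.14). At 39 °C, 2 to 18 cells per library had at least 5 UMIs of Acta2. All of Acta2, Tagln and Myl9 were detected in 2.98%, 2.69%, 2.17% and 3.34% of thinned cells at 37 °C and in 0.0420%, 0.173% and 0.241% in replicates 2 to 4 at 39 °C. In replicate 1 it was 0 of 949 cells, which allows a share of cells with all 3 detected of up to 0.316%. This limits detection in thinned cells, not expression.

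These transcripts met in the same cells. At 37 °C, Tagln was detected in 35.7%, 36.2%, 39.7% and 41.0% of cells with Acta2 and in 6.96%, 6.08%, 6.90% and 8.59% of cells without it, in replicates 1 to 4. Myl9 was detected in 22.3%, 23.9%, 19.6% and 23.3% of cells with Acta2 and in 2.61% to 3.24% of the others. In every library the share was several-fold larger beside Acta2. Before thinning, cells with Acta2 had a median of 13840, 16583.5, 17292 and 11828 UMIs at 37 °C against 11303, 14614, 15101.5 and 9999 in those without, and their median mitochondrial share was 7.31% to 7.54% against 7.53% to 7.95%; the part of depth in the detection of Acta2 was not tested beyond the thinning.

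Co-variation was described with Pearson's r of log(1 + count) over thinned cells, for the 7 members with a mean of at least 0.1 UMI per cell at 37 °C (all but Cnn1, Actg2 and Srf). All points of a library share its preparation, and cells are not replicates, so no p is given. All 21 pairs were positive in all 4 libraries at 37 °C, with a median of 0.184, 0.193, 0.194 and 0.192 in replicates 1 to 4. Pairs of other genes were not computed for comparison. The highest was Acta2 with Tagln, at 0.456 to 0.514, followed by Acta2 with Myl9 at 0.376 to 0.451. Tagln with Myl9 was lower, at 0.214 to 0.320, and Acta2 with Tpm1 was at 0.308 to 0.341. Tpm1 with Cnn2 formed a further pair at 0.288 to 0.343. The lowest was Tpm2 with Vcl, at 0.0631 to 0.0947. Within G1 cells the mean over libraries of the median r was 0.214, so the correlation was present inside a single phase. At 39 °C, Tagln and Myl9 were below 0.1 UMI per cell in every library and were not paired, and Acta2 could be paired in 2 libraries. The median over the 6 to 10 pairs was 0.193, 0.132, 0.161 and 0.154 in replicates 1 to 4. Tpm1 with Cnn2 was at 0.330 to 0.382, Tpm1 with Vcl at 0.191 to 0.230, Tpm1 with Tpm2 at 0.0156 to 0.0756 (0.131 to 0.192 at 37 °C), and Acta2 with Tpm1 at 0.161 and 0.179.

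**Figure D4:**
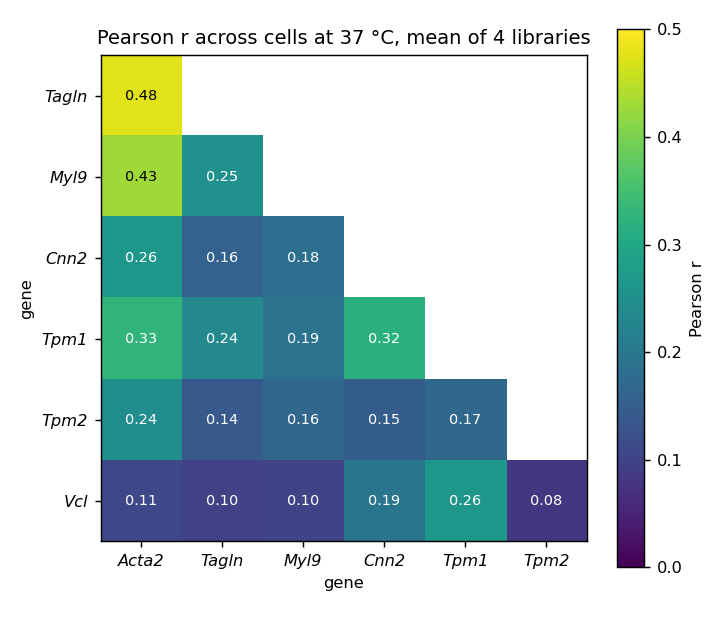
Pearson's r across thinned cells at 37 °C for the 21 pairs of 7 members, as the mean of 4 libraries, coloured from 0 to 0.5. The Acta2 column holds the highest values (0.48 with Tagln, 0.43 with Myl9), and Vcl with Tpm2 the lowest (0.08).

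The genes most like the set were sought among 6020 genes with at least 0.1 UMI per thinned cell in all 4 libraries at 37 °C, by their r with the mean z-score of the 7 members. The median gene was at -0.003 and the 99th percentile at 0.179. The 10 non-members with the highest mean r over the 4 libraries were Actb (0.523), Actg1 (0.489), Cald1 (0.478), Tmsb4x (0.468), Nes (0.416), Myl6 (0.412), Fhl1 (0.374), Flna (0.335), Col1a1 (0.314) and Csrp1 (0.303). They are, in that order, β and γ cytoplasmic actin, caldesmon, thymosin β4 (which binds actin monomers), nestin, a myosin light chain, a LIM protein of muscle, filamin A, a collagen chain and a LIM protein of the actin cytoskeleton. Each was lower at 39 °C (edgeR, adjusted p under 0.05), where 30.5% of all genes were, with log2 fold changes from -0.37 for Tmsb4x to -2.11 for Nes. These genes were found by likeness to members that this contrast had chosen, so nothing is read from the count. Nes, an intermediate filament gene used as a neural precursor marker, averaged 467 ± 54.2 CPM in the 37 °C libraries and 108 ± 6.36 CPM in the 39 °C libraries (SD, n = 4). The same 10 genes had a mean r at 39 °C between 0.187 (Csrp1) and 0.462 (Actg1). The members, each set against the mean of the others at 37 °C, were not above these genes as a group. Acta2 was at 0.548, Tpm1 at 0.432, Tagln at 0.387, Myl9 at 0.374 and Cnn2 at 0.356. Tpm2 (0.260) and Vcl (0.231) ranked only 27 and 39 among the genes compared.

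Phase of the cell cycle was the comparison that the choice of genes had not used. Sums of S cells and of G2M cells were tested against the G1 cells of the same libraries, with edgeR's quasi-likelihood test, the library as a block and Benjamini-Hochberg adjustment over 14172 genes. Both temperatures were in the same fit and shared its estimate of the spread. At 37 °C Acta2 and Tagln were highest in G1 cells in all 4 libraries, while Tpm2 was lowest there. Of 9 members tested, 3 were lower in S than in G1 at an adjusted p under 0.05 (Acta2, Tagln and Actg2) and 2 were higher (Tpm2 and Srf), where 23.8% and 21.2% of all genes were. In G2M, 5 were lower (Acta2, Tagln, Myl9, Cnn2 and Vcl) and 1 was higher (Tpm2), where 22.7% and 20.8% of all genes were.

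Acta2 in G1 cells at 37 °C was at 308, 327, 256 and 320 CPM, in S cells at 204, 188, 192 and 230 CPM, and in G2M cells at 190, 253, 162 and 254 CPM. It was lower than G1 in 4 of 4 libraries in both phases, with log2 fold changes of -0.57 ± 0.06 in S (adjusted p = 1.02e-12) and -0.51 ± 0.06 in G2M (adjusted p = 6.44e-11). Tagln was at 120, 159, 101 and 158 CPM in G1 cells and at 72.9, 77.9, 60.3 and 60.7 CPM in S cells. The S values were all below all G1 values, a log2 fold change of -0.98 ± 0.07 (adjusted p = 3.15e-21). In G2M cells Tagln was at 87.1, 116, 91.8 and 133 CPM, lower than G1 in 4 of 4 libraries (-0.32 ± 0.06, adjusted p = 2.00e-05). These calls for both genes were lost with DESeq2: the values were close (-0.56 and -0.52 for Acta2, -0.95 and -0.33 for Tagln, in S and G2M), but the adjusted p were 0.339 and 0.404 for Acta2 and 0.0676 and 0.611 for Tagln, the highest of 15 alternatives each, whose lowest were 2.33e-21, 5.74e-20, 1.59e-36 and 8.06e-07. The Tagln call in G2M was also lost with phase scored in each library alone, where the value was -0.15 (adjusted p = 0.0949).

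Vcl was lower in G2M in 4 of 4 libraries at 37 °C, at 231, 234, 229 and 232 CPM against 274, 278, 255 and 281 CPM in G1 cells (log2 -0.23 ± 0.03, adjusted p = 1.20e-08), and in S it differed by 0.06 ± 0.03 (adjusted p = 0.117). Tpm2 was higher than in G1 in 4 of 4 libraries in S (0.15 ± 0.04, adjusted p = 5.31e-04) and in G2M (0.13 ± 0.04, adjusted p = 0.00268). The G2M call was lost with phase scored in each library alone (0.07, adjusted p = 0.0523, the highest of 15 alternatives, with a lowest of 3.02e-05). Srf was higher in S in 4 of 4 libraries, at 19.2, 19.3, 22.7 and 21.1 CPM against 15.2, 13.5, 19.0 and 19.0 CPM in G1 (0.31 ± 0.09, adjusted p = 0.00284), while in G2M it was at -0.12 ± 0.09 (adjusted p = 0.336). With cells thinned to 5000 UMIs the Srf value in S was 0.27 with an adjusted p of 0.169, the highest of 15 alternatives, whose lowest was 2.07e-05. Tpm1 was at -0.03 in both phases (adjusted p = 0.481 and 0.482).

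Smaller or scarcer effects at 37 °C were lost in some alternatives. Cnn2 in G2M was at -0.13 ± 0.03 (adjusted p = 0.00144, lower in 4 of 4 libraries) and without 37 °C replicate 1 at -0.09 (adjusted p = 0.0638, the highest of 15 alternatives, with a lowest of 2.19e-05). Myl9 in G2M was at -0.28 ± 0.10 (adjusted p = 0.0216, lower in 3 of 4 libraries) and without the same replicate at -0.06 (adjusted p = 0.750, the highest of 15, with a lowest of 6.73e-04). It was also lost with DESeq2 (-0.26, adjusted p = 0.710) and with phase scored per library (-0.16, adjusted p = 0.195). Actg2 in S rested on 27 UMIs against 33 in G1 (-1.16 ± 0.43, adjusted p = 0.0226, lower in 3 of 4 libraries). It lost the call in 6 of 15 alternatives, which were leaving out replicate 1 (-1.05), 2 (-0.95) or 4 (-1.04), DESeq2 (-1.06), thinned cells (-0.89) and phase scored per library (-0.44), with adjusted p over all 15 from 0.00763 to 0.449.

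**Figure D5:**
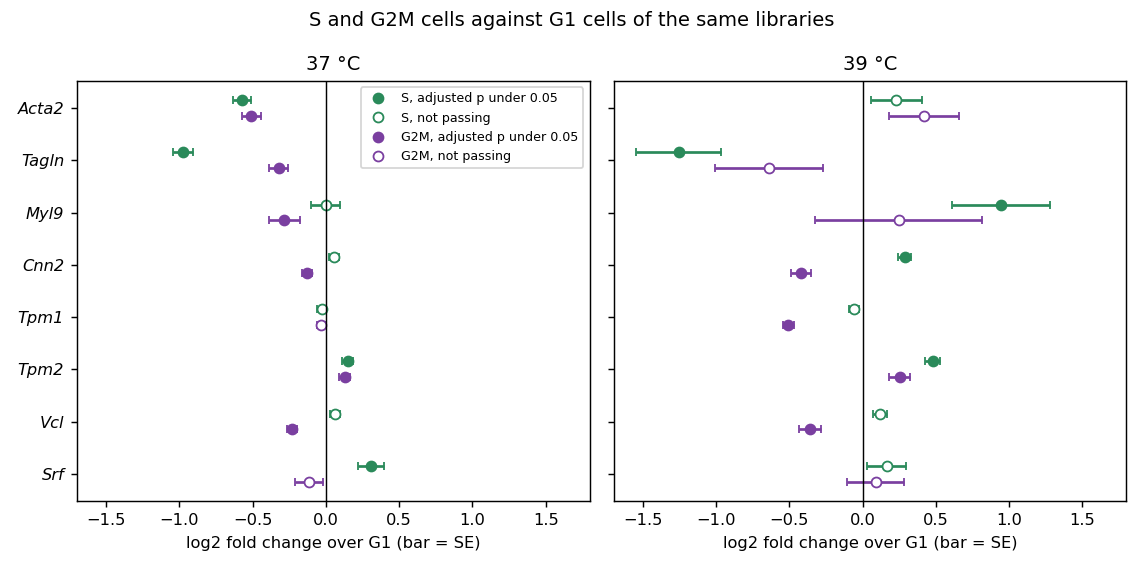
Log2 fold change of S cells (green) and G2M cells (purple) over G1 cells of the same libraries for 8 genes at 37 °C (left) and 39 °C (right), with bars for the SE and filled circles where the adjusted p was under 0.05. At 37 °C Acta2 (-0.57 and -0.51) and Tagln (-0.98 and -0.32) lie left of 0 in both phases, and Tpm2 lies right of 0 in all 4 comparisons.

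At 39 °C there were fewer cycling cells, 115 to 423 in S and 29 to 187 in G2M per library. In S, 1 member was lower (Tagln) and 3 were higher (Myl9, Cnn2 and Tpm2), where 19.3% and 18.0% of all genes were. In G2M, 3 were lower (Cnn2, Tpm1 and Vcl) and 1 was higher (Tpm2), where 14.0% and 12.5% were. Tagln in S was again lower in 4 of 4 libraries, at 3.00, 9.77, 2.94 and 2.31 CPM against 6.18, 13.0, 12.5 and 10.8 CPM in G1 (-1.26 ± 0.29, adjusted p = 2.56e-04). Acta2 did not pass in either phase (0.23 ± 0.17, adjusted p = 0.325 in S, and 0.42 ± 0.24, adjusted p = 0.213 in G2M). Tpm1 in G2M was at 994, 1411, 1441 and 1629 CPM against 1826, 2075, 2009 and 2004 CPM in G1, lower in 4 of 4 libraries (-0.51 ± 0.04, adjusted p = 1.18e-18). Whether the phase effects differed between the temperatures was not tested.

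Cnn2 at 39 °C was higher in S in 4 of 4 libraries (0.29 ± 0.04, adjusted p = 7.38e-08) and lower in G2M in 4 of 4 (-0.42 ± 0.07, adjusted p = 2.93e-07). Vcl was lower in G2M in 4 of 4 libraries (-0.36 ± 0.08, adjusted p = 1.00e-04), a call lost with thinned cells (-0.25, adjusted p = 0.115, the highest of 15 alternatives, with a lowest of 3.50e-07). Tpm2 was higher in S in 4 of 4 libraries, at 154, 156, 168 and 133 CPM against 113, 112, 109 and 104 CPM (0.48 ± 0.05, adjusted p = 7.11e-13). In G2M Tpm2 was higher in 3 of 4 (0.25 ± 0.07, adjusted p = 0.00554), and the call was lost without 39 °C replicate 3 (0.21) or replicate 4 (0.17) and with thinned cells, with adjusted p from 3.41e-04 to 0.158 over 15 alternatives. Myl9 in S rested on 44 UMIs (0.94 ± 0.34, adjusted p = 0.0201, higher in 3 of 4 libraries) and lost the call without 39 °C replicate 2 (0.71) or 4 (0.85), with DESeq2 (0.85) and with phase scored per library (0.29), with adjusted p over 15 alternatives from 0.00410 to 0.461. Srf passed in neither phase at 39 °C (0.16 ± 0.13 in S, adjusted p = 0.359, and 0.09 ± 0.19 in G2M, adjusted p = 0.796). Actg2 had 0 UMIs in both phases at 39 °C, so no fold is given.

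The other genes of the pathway set the members in context. These lists were written with earlier results of the same data known. Of 20 other smooth muscle and actin-linked SRF targets, 15 were lower at 39 °C and 2 were higher at an adjusted p under 0.05 (edgeR, over 15810 genes), with a median log2 fold change of -0.66 against 0.02 over all genes tested, of which 30.5% were lower and 31.5% higher. Among the lower genes with at least 10 CPM, the largest differences were in Fhl1 (256 ± 20.7 and 88.3 ± 4.36 CPM, SD, n = 4, -1.53), the smoothelin gene Smtn (17.3 ± 1.5 and 7.76 ± 0.48 CPM, -1.16) and Fhl2 (70.0 ± 5.06 and 33.8 ± 1.31 CPM, -1.05). Mylk, the kinase that activates Myl9 by phosphorylation, was higher at 39 °C, at 10.8 ± 0.51 and 16.2 ± 0.89 CPM (0.58 ± 0.06, adjusted p = 1.33e-07). Des was the other higher gene, at 4.15 and 6.43 CPM.

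Of 13 non-muscle counterparts of the members, 12 were lower and none was higher (30.5% and 31.5% of all genes), with a median of -0.69; the gene that did not pass was Tagln3, with 41 and 45 UMIs. Actg1 (3760 ± 299 and 1395 ± 30.8 CPM, -1.43), Actb (5091 ± 393 and 2167 ± 75.7 CPM, -1.23) and the non-muscle myosin Myh10 (107 ± 2.55 and 53.7 ± 2.66 CPM, -0.99) differed most. The difference in Acta2 was thus accompanied by a smaller one in the cytoplasmic actins, which were over 15 times as abundant in CPM at 37 °C.

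Of the 7 SRF cofactors, 1 was lower and 4 were higher (30.5% and 31.5% of all genes), with a median log2 fold change of 0.21. Mkl1, which encodes MRTF-A, was at 22.3 ± 0.89 and 23.3 ± 1.14 CPM (SD, n = 4, 0.06 ± 0.05, adjusted p = 0.346), and Mkl2, which encodes MRTF-B, was higher at 39 °C, at 23.6 ± 1.49 and 33.7 ± 2.20 CPM (0.51 ± 0.06, adjusted p = 2.87e-07). Myocd, the myocardin gene, was the lower one, with 29 UMIs at 37 °C and 5 at 39 °C over all libraries (adjusted p = 0.0138). This call rested on few UMIs: none of the 7 was lower without 37 °C replicate 1 or with thinned cells, and with filterByExpr 6 cofactors were left and none was lower. Among the ternary complex factors, Elk4 (0.39) and Elk3 (0.21) were higher and Elk1 was at 0.07 (adjusted p = 0.364). Scai, which encodes a repressor of MRTF, was higher in the 39 °C libraries, at 21.9 ± 1.10 and 34.7 ± 2.68 CPM (0.67 ± 0.06, adjusted p = 7.28e-09).

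The listed targets of the ternary complex branch were higher at 39 °C, while the members were lower. The members' direction was fixed by their choice and this list was written with earlier results known, so nothing is read from the difference. All 8 immediate-early genes of the list were higher at 39 °C, in the lower serum, with a median of 0.68, where 31.5% of all genes were higher. Junb was at 180 ± 9.84 and 416 ± 33.3 CPM (SD, n = 4, 1.21 ± 0.06, adjusted p = 1.43e-12), Fos at 9.90 ± 3.16 and 24.1 ± 2.49 CPM (1.28 ± 0.14, adjusted p = 1.09e-07), and Egr3 at 8.50 ± 0.62 and 14.3 ± 1.32 CPM (0.74 ± 0.08, adjusted p = 8.23e-08). The direction of this list, and of the members, was the same under each scaling tried.

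Of 10 genes of TGF-β signalling, which induces Acta2 and Tagln in fibroblasts, 2 were lower and 7 were higher (30.5% and 31.5% of all genes), with a median of 0.43. Tgfb2 (162 ± 9.77 and 74.9 ± 2.72 CPM, -1.12) and the receptor gene Tgfbr2 (-0.58) were lower, while Smad7, an inhibitor of the pathway (62.3 ± 4.85 and 135 ± 8.93 CPM, 1.11), Tgfbr1 (1.00) and Smad3 (0.93) were higher.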

How the data were processed

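Per the labels and the methods, cells were captured with the Chromium Single Cell 3′ V3 kit. The authors aligned reads to mm10 (GRCm38) with Cell Ranger 3.0.1 and deposited UMI counts per gene and cell, with no normalization. Cells were kept as in the study, at 200 to 6000 genes and at most 15% mitochondrial UMIs. Phases came from Seurat CellCycleScoring on all kept cells (42 S and 52 G2M genes, no member among them). Counts were summed per library, or per library and phase. A gene needed a mean count of at least 1 and was then tested with edgeR 4.0.16 (R 4.3.3; TMM, glmQLFit, glmQLFTest), with temperature alone, or with phase within temperature and the library as a block. SEs are the fold change over the square root of F. CPM use totals of tested genes scaled by TMM factors, and sums of marker lists use plain totals.

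In simulated counts, of 200 genes given a log2 change of 2, 197 were recovered in all cells (15593 genes) and 200 in G2M against G1 at 37 °C (13985 genes), with 0 false calls. Calls there were made at the stricter limits (adjusted p below 0.01, log2 fold change over 1.5 in size), and libraries differed in total count but in no other set way. The simulation therefore says nothing about smaller changes or about calls at an adjusted p under 0.05, which include all phase calls given here. The members and lists were chosen with earlier results of these data known. Another list, which counts toward the totals of related genes in the closing section, is not reported here. All members are named. Of each list up to 3 genes per direction with the largest change among those with an adjusted p under 0.05 and at least 10 CPM are named, and all SRF cofactors. Des, Tagln3 and marker genes under 1 CPM were named after their values were seen. Gene positions are from GENCODE M21 (GRCm38). Alternatives were other scaling (RLE, totals), low-count filters, DESeq2 1.42.0, cell filters, thinning, phase scored per library, a single temperature, the replicate number as a block and each library left out. Binomial and Poisson limits cover counting error only, and a count of 0 allows 3 counts.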

Additional observations from a re-analysis of the deposited data

Results flagged for a closer look

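In the 71 groups of 4 libraries examined (CPM of the members in all cells and in G1 cells, and their log2 values of S and G2M over G1), 1 library stood apart from the other 3 of its group by Dixon's criterion. Tpm2 at 39 °C was at 109 CPM in replicate 4 and 116 CPM in each of the other 3 libraries. Chance gives such a gap in about 1 of 20 groups, and the value stayed under the lowest 37 °C library, at 231 CPM.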

How the results depend on the processing

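All members tested stayed lower at 39 °C in every alternative run, and the counts of members by temperature and the summed counts of the related lists stayed within 1.5 times of the values given. Of the single lists, the SRF cofactors had 0 lower in place of 1 without 37 °C replicate 1, with thinned cells and with filterByExpr. Cnn1 decided the count in all cells, which was 9 in place of 10 in 5 alternatives, among them leaving out 37 °C replicate 3, 39 °C replicate 2 or 39 °C replicate 4. The 11 phase calls at 37 °C fell to 5 with DESeq2 and were 9 to 13 in the other alternatives; the 8 at 39 °C were 7 to 10. The median r over pairs at 37 °C, 0.191, was 0.117 at 2000 UMIs per cell, 0.278 with no thinning, 0.182 with Spearman's coefficient and 0.214 in G1 cells. The size of r thus moved with the depth of thinning. Single values moved by more than the spread between replicates for Cnn1 (-2.30; -3.19 without 39 °C replicate 3 and -3.26 at a mitochondrial share of at most 10%), Actg2 (-3.27; -2.78 with thinned cells) and Srf (-0.59; -0.46 with thinned cells); the cause was not tested.

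The replicate numbers do not pair the libraries: same-numbered libraries correlated at -0.11, -0.08, -0.07 and 0.20 in their deviations from the group means, and 1 of 4 correlated best with its own number. With the replicate number as a block, 10 members were lower in all cells, 9 in G1 cells and 4 past the stricter limits, and 35 related genes were lower and 26 higher, against 36 and 26 without it.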
